A study of Mus musculus with 17 samples.

Results

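The Hox genes of the array were taken as a readout of where along the body axis the ganglia had been sampled. Every row whose platform gene symbol was Hoxa, Hoxb, Hoxc or Hoxd followed by a number was used, which gave 34 Hox genes among the 17306 probe sets, and 16464 of these probe sets carried 1 gene symbol. RNA came from sympathetic ganglia, by the study the superior cervical ganglia (SCG) and the stellate ganglia, of C57BL/6 mice. Wild-type mice (Wt) were compared with knock-in (KI) mice carrying the activating Alk F1178L point mutation on 1 allele (Het) or on both (Hom). By the study's methods the mutated exon of the KI allele is flanked by LoxP-type sites, and both kinds of ganglia were pooled. At birth (P0) there were 4 Wt, 4 Het and 4 Hom arrays, and at postnatal day 18 (P18) 3 Wt and 2 Het arrays. No label states that each sample was another animal. The p-values therefore reflect sample-to-sample spread, part of which may be technical. The protocol text of the labels speaks of tumours where the title and tissue fields name ganglia, and the latter were followed.

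Hox genes encode homeodomain transcription factors and lie in 4 clusters, HoxA on chromosome 6, HoxB on 11, HoxC on 15 and HoxD on 2. Within a cluster, genes of low paralog number are expressed from the hindbrain backwards and genes of higher number start progressively further down the trunk. Cells of the neural crest, from which sympathetic neurons and ganglion glia arise, keep a part of this code after they migrate. The SCG is the most rostral sympathetic ganglion and the stellate ganglion lies below it, where neck and thorax meet. Hox proteins bind DNA together with cofactors of the Meis, Pbx and Pknox families, and Polycomb and Trithorax proteins hold Hox clusters silent or active. Retinoic acid, a vitamin A derivative, switches on their rostral genes in the embryo.

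All values below are log2 values after GCRMA, a background correction and normalization of Affymetrix arrays. Genes over 4 in 2 or more of the 17 arrays were kept for testing, and values under this limit were not read as expression. Under this rule 9973 probe sets and 6 of 34 Hox genes were kept. Between 9074 and 9424 probe sets of an array exceeded 4 and array medians lay between 4.41 and 4.68. The noradrenaline-synthesizing enzymes Th and Dbh lay between 10.97 and 13.33 and between 12.14 and 13.59 in all arrays, the sympathetic transcription factor Phox2a between 11.41 and 12.20, and Hand2, another, between 4.31 and 4.82. Cartilage and thymus lists, 9 members each with a row, had none over the limit in 2 arrays. Sox10, a glial factor, ranged from 3.27 to 4.44.

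The Hox genes over the limit were Hoxb3 and Hoxd3 of paralog groups 1-3, Hoxc4 and Hoxb5 of groups 4-5, and Hoxc8 and Hoxd8 of groups 8-9. None of the 3 genes of groups 6-7 and none of the 10 genes of groups 10-13 passed. By cluster, 0 of 9 HoxA, 2 of 9 HoxB, 2 of 7 HoxC and 2 of 9 HoxD genes passed. The 28 remaining genes lay between 1.83 and 3.93 in every array. Hoxd8 and its neighbour Hoxd9 stood on opposite sides of the limit, with Hoxd8 at 5.92 to 7.76 and Hoxd9 at 2.80 to 3.36. In HoxC, Hoxc4 (9.89 to 10.75) and Hoxc8 were over the limit and Hoxc5 and Hoxc6, which lie between them, were not (at most 2.78 and 1.97). Probe sets differ in how well they detect their transcript, so these levels rank no gene above another. A low value says only that the probe set gave no signal over background. Hoxb3 and Hoxd3 span Hoxb4 and Hoxd4 in the RefSeq annotation, so transcripts that they share with these genes were not told apart here.

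**Figure D1:**
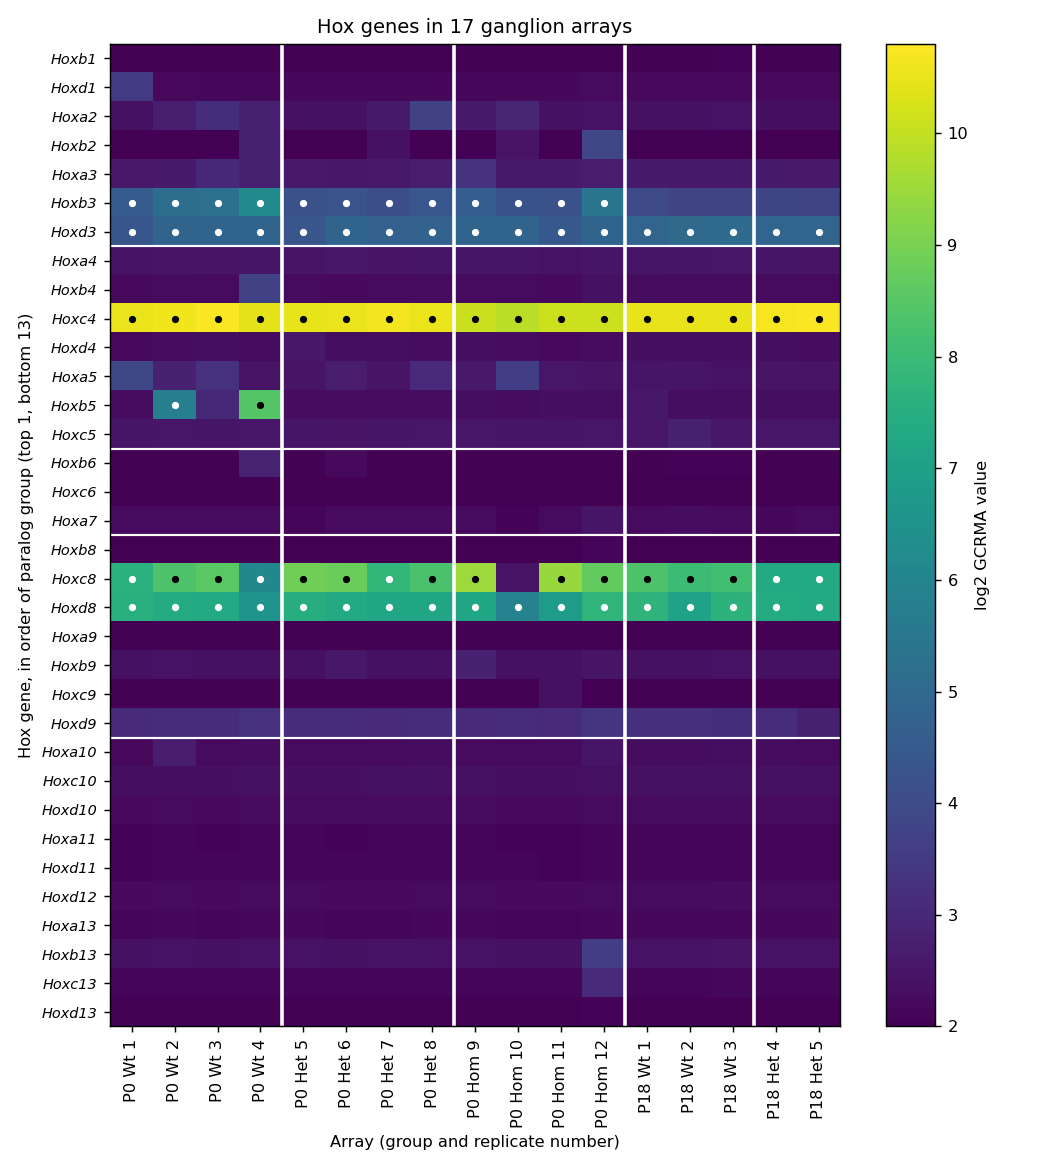
Log2 GCRMA value (colour) of the 34 Hox genes (rows, by paralog group from 1 at the top to 13 at the bottom) in the 17 arrays (columns, by group and replicate number). Dots mark values over 4, and colours are to be compared within a row. Hoxd3, Hoxc4 and Hoxd8 exceed 4 in 17 arrays, Hoxc8 in 16, Hoxb3 in 12 and Hoxb5 in 2.

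Of the 34 Hox genes, 21 had a promoter window (250 bases before the start and 50 after it) in RefSeq, among them Hoxc4, Hoxd8 and Hoxd3 of the 6 kept genes. The windows of Hoxc4, whose level differed by genotype, and of the neighbours Hoxd8 and Hoxd9, over and under the limit, are shown 5′ to 3′ from build GRCm38.p6, all on the plus strand. They lie at chr15:103034145-103034444, chr2:74704365-74704664 and chr2:74697513-74697812. Capitals mark TAAT on either strand (TAAT or ATTA), the core of many homeodomain binding sites.
Hoxc4: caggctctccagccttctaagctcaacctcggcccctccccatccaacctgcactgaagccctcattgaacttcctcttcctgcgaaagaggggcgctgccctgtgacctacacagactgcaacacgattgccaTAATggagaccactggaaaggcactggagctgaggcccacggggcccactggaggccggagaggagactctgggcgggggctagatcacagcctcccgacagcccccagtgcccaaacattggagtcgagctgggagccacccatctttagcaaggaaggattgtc
Hoxd8: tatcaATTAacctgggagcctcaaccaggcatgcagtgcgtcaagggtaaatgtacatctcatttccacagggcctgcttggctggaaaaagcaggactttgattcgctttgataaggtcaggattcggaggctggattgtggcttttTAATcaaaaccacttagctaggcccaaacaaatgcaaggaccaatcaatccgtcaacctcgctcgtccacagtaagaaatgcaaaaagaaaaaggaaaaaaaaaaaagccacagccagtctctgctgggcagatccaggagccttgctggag
Hoxd9: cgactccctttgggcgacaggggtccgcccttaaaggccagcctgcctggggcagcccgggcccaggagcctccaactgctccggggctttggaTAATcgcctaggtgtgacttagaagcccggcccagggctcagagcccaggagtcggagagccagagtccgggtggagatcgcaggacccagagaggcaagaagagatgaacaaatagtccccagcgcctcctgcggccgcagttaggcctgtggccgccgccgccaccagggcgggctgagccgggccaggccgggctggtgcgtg
TAAT on either strand occurred 1, 2 and 1 times in these windows, and 58% of all 32851 windows held it at least once. CpG pairs, dense in the islands that Polycomb proteins bind, numbered 9 in the Hoxc4 window, 6 in Hoxd8 and 20 in Hoxd9. At least as many were found in 45.8%, 56.4% and 26.5% of all windows. These matches describe letters only, with no claim on binding.

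Hoxc4 was lower in Hom ganglia at birth than in Wt or Het. Hoxc4, a factor of the cervical and upper thoracic spinal cord and neural crest, read 10.55, 10.63, 10.75 and 10.42 in the P0 Wt arrays (replicates 1 to 4, mean 10.59 ± 0.14, SD, 4 arrays). The P0 Het arrays read 10.48, 10.55, 10.64 and 10.54 (replicates 5 to 8, mean 10.55 ± 0.07, SD, 4 arrays). The P0 Hom arrays read 10.11, 9.89, 10.12 and 10.14 (replicates 9 to 12, mean 10.06 ± 0.11, SD, 4 arrays). All 4 Hom arrays lay under all 8 other P0 arrays, while Wt and Het overlapped. The difference of Hom from Wt was -0.52 ± 0.08 (SE, a 1.44-fold lower level, adjusted p = 0.00035, limma) and that of Hom from Het -0.49 ± 0.08 (1.4-fold lower, adjusted p = 0.0016, limma). Het differed from Wt by -0.03 ± 0.08 (adjusted p = 0.871, limma), and the mean of both mutant groups by -0.28 ± 0.07 (adjusted p = 0.0188, limma), a call lost without P0 Wt replicate 2 (adjusted p = 0.0612) or 3 (0.0651). The exact permutation test over the 3 genotypes gave p = 0.00433. For Hom against Wt and for Hom against Het the exact permutation test gave p = 0.0286 (0.0429 adjusted over 3 pairs, two-sided). This is the smallest value that 4 against 4 arrays allow, so it restates that the arrays did not overlap. For Het against Wt the exact permutation test gave p = 0.714 (two-sided). At P0 the permutation test was run on Hoxc4 alone, which limma had called on the same arrays. The choice among the kept Hox genes was not adjusted for, so these permutation p-values give no independent support. Hoxc4 was among the steadiest genes of the data: its residual SD of 0.0961 was smaller than that of all but 4.5% of the genes.

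Several sympathetic neuron genes were lower in the same arrays. Of the 12 kept sympathetic markers, 5 fell in Hom against Wt and 0 rose, beside 8.5% of all genes called in either direction: Npy (-3.17 ± 0.32), a neuropeptide, Hmx1 (-1.88 ± 0.10) and Gata2 (-0.86 ± 0.12), transcription factors, Th (-0.82 ± 0.12) and Ddc (-0.75 ± 0.12). The summed level of the list, as log2, was 14.77 to 15.14 in Hom against 15.29 to 15.53 in Wt and 15.36 to 15.41 in Het, and Dbh differed by -0.02 ± 0.09 (adjusted p = 0.955, limma). Its part in the Hoxc4 difference was not tested. In bulk RNA, fewer cells of a type and less RNA per cell cannot be told apart, nor can unequal shares of SCG and stellate tissue.

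A list of developmental genes of head and neck levels had 3 of 13 members kept, of which 1 was higher and 1 lower in Hom than in Wt, beside 8.5% of all genes. Dlx1, a homeobox gene of forebrain and branchial arches, read 4.40 to 5.08 in P0 Hom, 3.33 to 4.07 in Het and 2.83 to 3.20 in Wt. The groups did not overlap, as for 9.44% of all genes in Hom against Wt and 16.1% in Hom against Het. All Wt arrays were under the limit, and Dlx1 passed the filter mainly through the Hom arrays. Its adjusted p-values (3e-05 for Hom against Wt and 0.00679 for Hom against Het, limma) therefore give no independent support. Tbx20, a T-box gene of heart and hindbrain motor neurons, read 2.92 to 4.04 in Hom and 4.01 to 4.93 in Wt, a difference of -1.11 ± 0.24 (adjusted p = 0.00676, limma). Most Hom arrays lay under the limit for Tbx20, so the size of its difference is uncertain. Dlx2 did not pass (0.54 ± 0.26, adjusted p = 0.242, limma). The summed level of the 3 genes was 5.66 to 6.29 in Hom, above all Het arrays (5.32 to 5.53) and overlapping Wt (5.14 to 5.86). The 9 other members with a row, among them Otx1, Otx2, En2 and Gbx2, were under the limit.

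At P18 Hoxc4 read 10.51, 10.50 and 10.52 in Wt and 10.69 and 10.74 in Het. The Het arrays lay above the Wt arrays by 0.20 ± 0.10 (adjusted p = 0.683, limma), and the Het effect at P18 exceeded that at P0 by 0.24 ± 0.13 (adjusted p = 0.554, limma), so neither passed the test. Between P0 and P18 Wt the difference was -0.07 ± 0.08 (adjusted p = 0.47, limma).

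**Figure D2:**
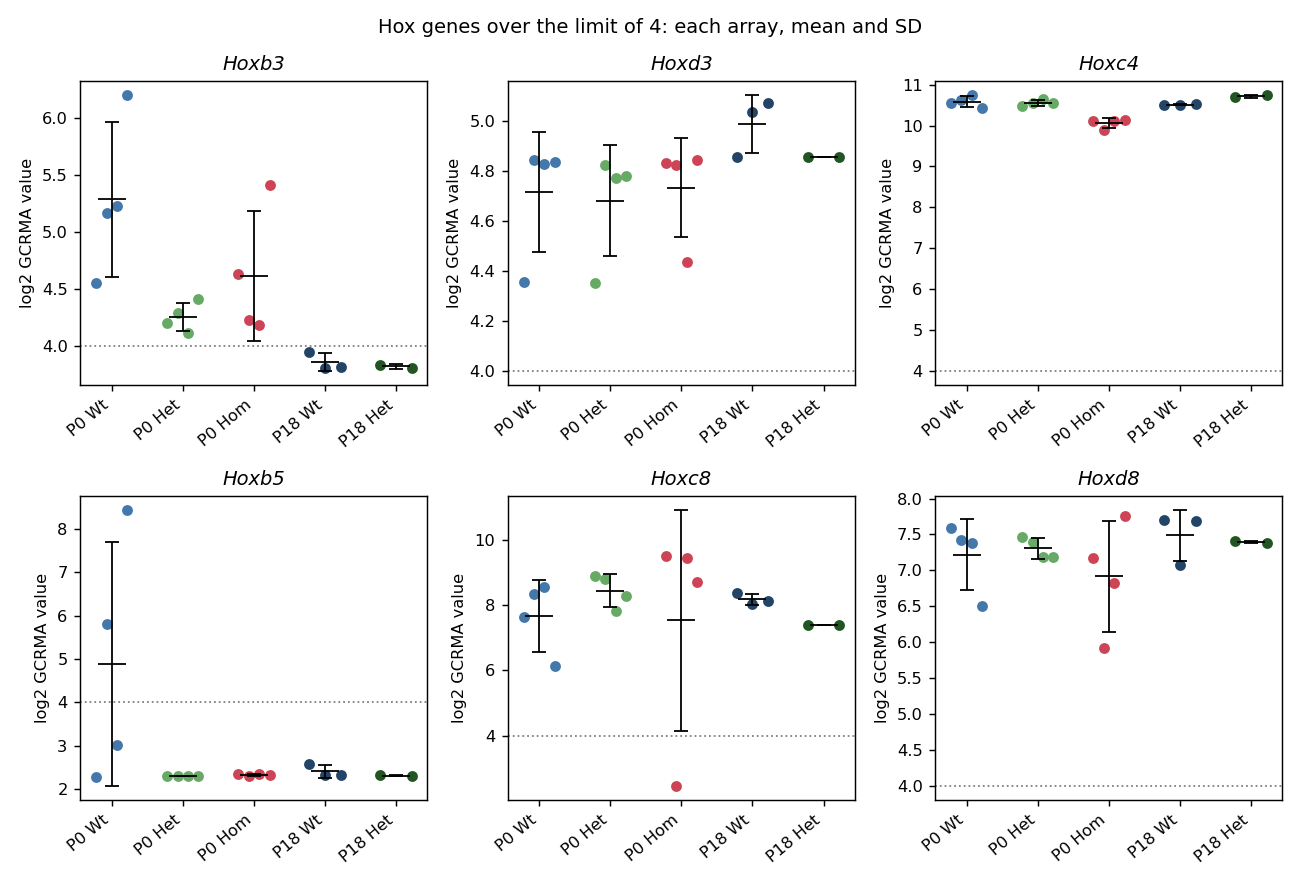
Log2 GCRMA value (y axis, own scale for each gene) of the 6 kept Hox genes by group. Points are arrays, bars the mean and SD, and the dotted line the limit of 4. The 4 P0 Hom arrays lie lowest for Hoxc4, and 1 of them falls to 2.47 for Hoxc8.

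Across the P0 genotypes, 1 of 6 Hox genes (Hoxc4) was called for mutants against Wt, beside 6.76% of all genes tested. For Hom against Wt it was again 1 of 6, beside 8.5%, and for Hom against Het 1 of 6, beside 7.39%. For Het against Wt limma called 0 of 6, beside 3.11%, with 2 (Hoxb3 and Hoxb5) at an unadjusted p under 0.05, and the t-test named in the methods called 0. With 6 members, 1 call is too few to set against the background of these comparisons. Arrays of both groups did not overlap for Hoxb3 in Het against Wt (1 of 6, beside 14.6% of all genes), and for Hoxc4 in Hom against Wt (1 of 6, beside 9.44%) and in Hom against Het (1 of 6, beside 16.1%).

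Hoxb3, a gene of the caudal hindbrain and neck, read 4.55, 5.16, 5.23 and 6.21 in P0 Wt arrays. It read 4.19, 4.29, 4.11 and 4.41 in P0 Het and 4.63, 4.23, 4.18 and 5.42 in P0 Hom. Every Het array lay below every Wt array, while Hom overlapped both. The differences from Wt were -1.04 ± 0.30 for Het (adjusted p = 0.0695, limma) and -0.67 ± 0.30 for Hom (adjusted p = 0.194, limma), and neither passed the test. The mean of both mutant groups differed by -0.86 ± 0.26 (adjusted p = 0.0595, limma), which passed without P0 Wt replicate 1 (-1.10, adjusted p = 0.016) or without P0 Hom replicate 12 (-0.99, adjusted p = 0.0126). Without Wt replicate 1 the Het difference passed too (-1.28, adjusted p = 0.0221). Without Wt replicate 4 the mutant difference was smaller (-0.55, adjusted p = 0.179).

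Hoxb5, which is known in mouse for its role in vagal and trunk neural crest, was over the limit in 2 arrays only. It read 2.29, 5.80, 3.03 and 8.44 in P0 Wt replicates 1 to 4. All P0 Het and Hom arrays lay between 2.30 and 2.35, at background. Wt replicate 1 was as low as the mutants, so the groups overlapped and the SD of the Wt arrays was 2.81. Hoxb5 passed the filter through Wt replicates 2 and 4 alone, so its values are given as a description and no difference between genotypes was read from them.

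Other HoxB genes stayed under the limit in all arrays, and their values are not read as expression. In Wt replicate 4 Hoxb4 read 3.69 and at most 2.40 in the other arrays, Hoxb6 2.89 against at most 2.22, and Hoxb2 2.79, second only to 3.88 in P0 Hom replicate 12. Hoxb1, Hoxb8 and Hoxb9 read at most 2.08, 2.13 and 2.80 in any array. The sensory neuron factor Pou4f1 read 5.94 in Wt replicate 1 and 5.40 in replicate 4, and 2.51 to 2.62 in all other arrays. Hoxb5 in these 4 Wt arrays read 2.29, 5.80, 3.03 and 8.44. Over the 6 kept sensory markers the summed level was 12.87 to 13.69 in P0 Wt, 13.58 to 13.74 in Het and 13.42 to 13.66 in Hom. The median over these markers, relative to the P0 mean, was highest in Wt replicates 4 (2.51) and 1 (2.07). Their part in the HoxB values was not tested.

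Hoxc8 and Hoxd8, genes of the brachial and thoracic levels, were of the highest paralog group over the limit. Hoxc8 read 7.63, 8.33, 8.56 and 6.12 in P0 Wt, 8.89, 8.78, 7.81 and 8.27 in P0 Het, and 9.50, 2.47, 9.44 and 8.70 in P0 Hom. The values of P0 Hom replicates 9, 11 and 12 exceeded all 4 Wt values, whereas replicate 10 lay at background. Hoxc8 differed by -0.13 ± 1.16 in Hom against Wt (adjusted p = 0.968, limma), and without Hom replicate 10 by 1.55 in the other direction (adjusted p = 0.035), a call that rests on leaving out 1 array. Against Het the difference was -0.91 ± 1.16 (adjusted p = 0.687) and without replicate 10 it was 0.77 (adjusted p = 0.301, limma). The residual SD of Hoxc8, 1.80, was larger than that of 99.7% of the genes tested.

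Hoxd8 read 7.59, 7.42, 7.38 and 6.50 in P0 Wt, 7.47, 7.39, 7.18 and 7.19 in P0 Het, and 7.17, 5.92, 6.82 and 7.76 in P0 Hom. The groups overlapped and Hom differed from Wt by -0.30 ± 0.31 (adjusted p = 0.637, limma). The 2 arrays lowest for Hoxc8, P0 Hom replicate 10 and P0 Wt replicate 4, were also the 2 lowest for Hoxd8. As the mean of both genes relative to the P0 arrays, they stood at -3.32 and -1.20, and the other 10 P0 arrays between -0.02 and 0.82. In Hom replicate 10, Hoxc8 lay 3.65 below the lowest of the other 16 arrays, a gap that no other of the 9973 genes reached there. In all, 23 genes were under the limit in that array and over it in the 16 others.

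Markers of fat were highest in the same Hom array. Ucp1, the uncoupling protein of brown fat, read 11.12 there, 10.47 in Wt replicate 3 and 8.97 in Wt replicate 4, and Hoxc8 in these arrays read 2.47, 8.56 and 6.12. Of the 9 fat markers, 4 were kept, and their summed level was 12.43 to 13.55 in P0 Wt, 10.43 to 12.27 in Het and 11.19 to 14.55 in Hom. Th (11.66) and Dbh (12.35) of Hom replicate 10 were within the range of the other P0 arrays. Skeletal muscle markers (11 kept) varied most among Wt arrays, with summed levels of 15.14 and 14.15 in replicates 1 and 2 and 7.13 in replicate 4. The part of these tissues in the Hox values was not tested.

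**Figure D3:**
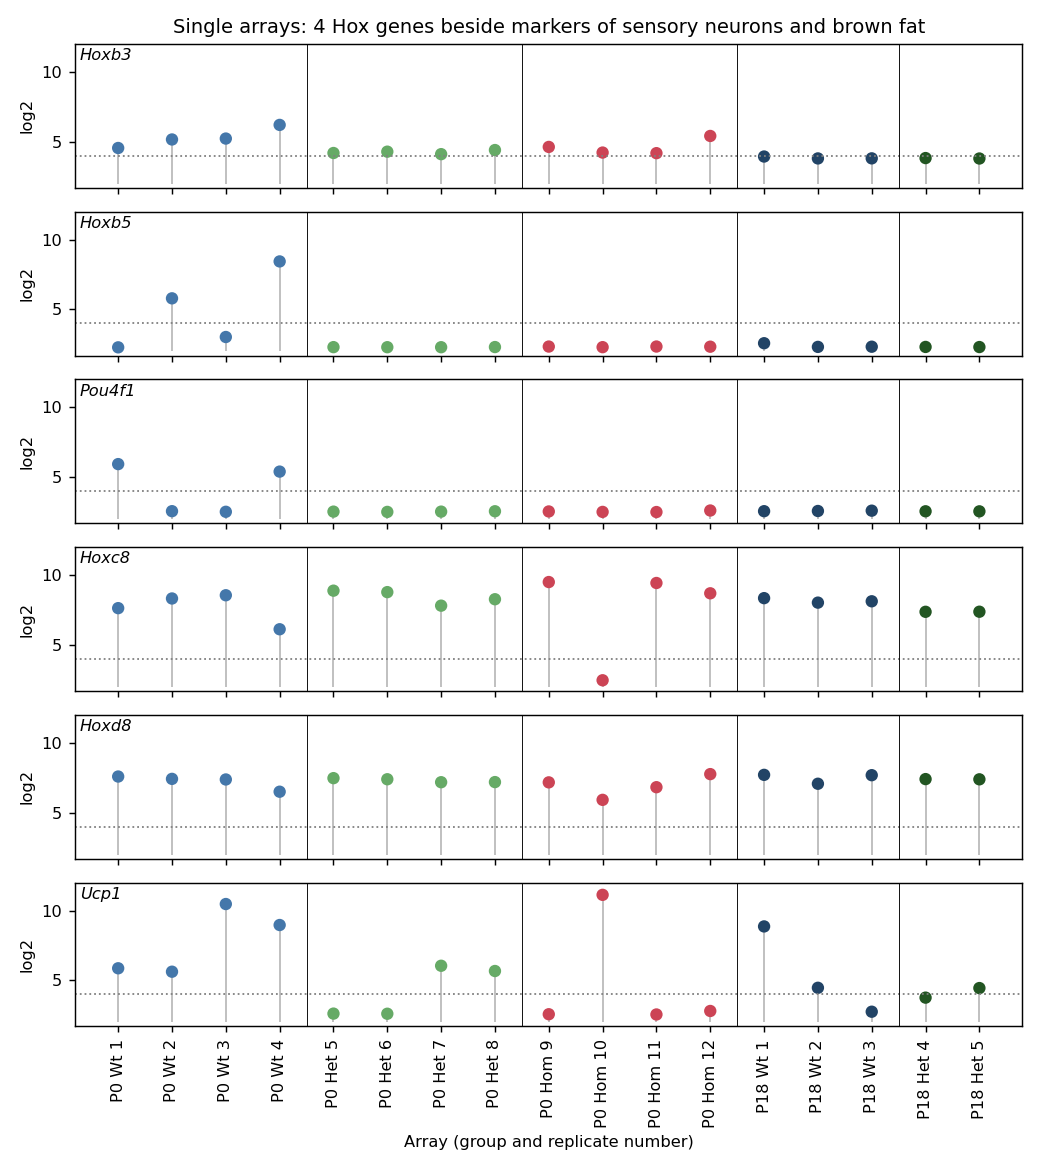
Log2 GCRMA value (y axis) in each array (x axis) of Hoxb3, Hoxb5, Hoxc8 and Hoxd8 and of the markers Pou4f1 (sensory neurons) and Ucp1 (brown fat), with the limit of 4 dotted. P0 Wt replicate 4 is highest for Hoxb3 and Hoxb5 and low for Hoxc8, and P0 Hom replicate 10 is lowest for Hoxc8 (2.47) and Hoxd8 (5.92).

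Hoxd3, a paralog of Hoxb3, read 4.36, 4.84, 4.83 and 4.84 in P0 Wt, 4.35, 4.82, 4.77 and 4.78 in P0 Het, and 4.83, 4.82, 4.44 and 4.84 in P0 Hom. In each group 1 array lay lower than the others, and Hom differed from Wt by 0.02 ± 0.15 (adjusted p = 0.969, limma).

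Among the genes under the limit, 9 of 28 exceeded 3 in some array. Hoxa5, of the neck and upper thorax, reached 3.93 in P0 Wt replicate 1 and 3.62 in Hom replicate 10. The hindbrain gene Hoxa2 reached 3.74 in Het replicate 8, and Hoxd1 3.49 in Wt replicate 1. Hoxb13 and Hoxc13, of the caudal end of the trunk, reached 3.64 and 3.09 in Hom replicate 12, an array that also had the highest Hoxb2 and the highest share of probe sets over the limit (54.5%). Hoxd9 never left the span of 2.80 to 3.36. No gene of groups 10-12 exceeded 2.71.

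Hoxb3 read lower in P18 than in P0 Wt ganglia, and no HoxC or HoxD difference passed the test. At P18 Hoxb3 read 3.94, 3.81 and 3.81 in Wt and 3.83 and 3.80 in Het, all below each P0 array. All P18 values lay under the limit. With P18 set at the limit, the P0 Wt mean was at least 2.44-fold higher, a bound that rests on arrays spread from 4.55 to 6.21. The fitted difference was -1.44 ± 0.32 (adjusted p = 0.00135, limma). Hoxb3 had passed the filter through its P0 arrays alone, so this p-value gives no independent support. The exact permutation test, chosen after seeing the data, gave p = 0.0571 (two-sided, 35 arrangements). Hoxb5 read 2.58, 2.32 and 2.33 in P18 Wt and 2.32 and 2.31 in P18 Het. These groups overlapped with P0 Wt, and Hoxb5 had passed the filter through P0 Wt replicates 2 and 4 alone. Its fitted difference of -2.48 ± 0.96 (adjusted p = 0.0385, limma), with an exact permutation p of 0.257, did not pass without any 1 of the 3 P18 Wt arrays (adjusted p = 0.0736 to 0.0911) and was not read as a fall. In Het, Hoxb3 changed by -0.43 ± 0.36 (adjusted p = 0.352, limma). The summed level of 10 endothelial and mural markers was 11.01 to 12.72 in P0 Wt and 9.09 to 9.24 in P18 Wt, and that of the sympathetic markers 15.29 to 15.53 and 16.27 to 16.38. Their part in the Hoxb3 difference was not tested. Since the labels give no scan date, age and batch cannot be told apart.

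P18 Wt arrays read 8.35, 8.03 and 8.12 for Hoxc8 and 7.71, 7.07 and 7.68 for Hoxd8, with differences from P0 Wt of 0.51 ± 1.25 and 0.27 ± 0.34 (adjusted p = 0.752 and 0.524, limma). P18 Het arrays read 7.37 and 7.38 for Hoxc8, below every P18 Wt array, and 7.40 and 7.39 for Hoxd8. The Hoxc8 difference of Het from Wt, -0.79 ± 1.49, did not pass (adjusted p = 1, limma). Hoxd3 read 4.86, 5.03 and 5.07 in P18 Wt, above each P0 Wt array, with a difference of 0.27 ± 0.16 (adjusted p = 0.172, limma).

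Between the ages, 2 of 6 Hox genes (Hoxb3 and Hoxb5) were called in Wt, beside 54.9% of all genes. Both had passed the filter through P0 arrays alone, so this count gives no independent support. In Het limma called 0 of 6, beside 47.8%, with 0 at an unadjusted p under 0.05 and 1 (Hoxb3) by the t-test. Arrays of both ages did not overlap for 2 of 6 in Wt (Hoxb3 and Hoxd3), beside 57.7%, and for 5 of 6 in Het (all but Hoxd8), beside 72.6%. The 5 include Hoxb5, which lay at background in Het at P0 (2.30 to 2.31) and P18 (2.31 to 2.32), so its separation was not read. For Het against Wt at P18 limma called 0 of 6, beside 0.261%, with 0 at an unadjusted p under 0.05 and 0 by the adjusted t-test. Arrays did not overlap there for 3 of 6 (Hoxb5, Hoxc4 and Hoxc8), beside 35.5%. Hoxb5 again lay at background in both groups (2.31 to 2.32 in Het and 2.32 to 2.58 in Wt), and its separation was not read. The Het effects at both ages were compared directly, and 0 of 6 Hox genes differed, beside 0.14%, the smallest unadjusted p being that of Hoxb3 (0.0557).

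**Figure D4:**
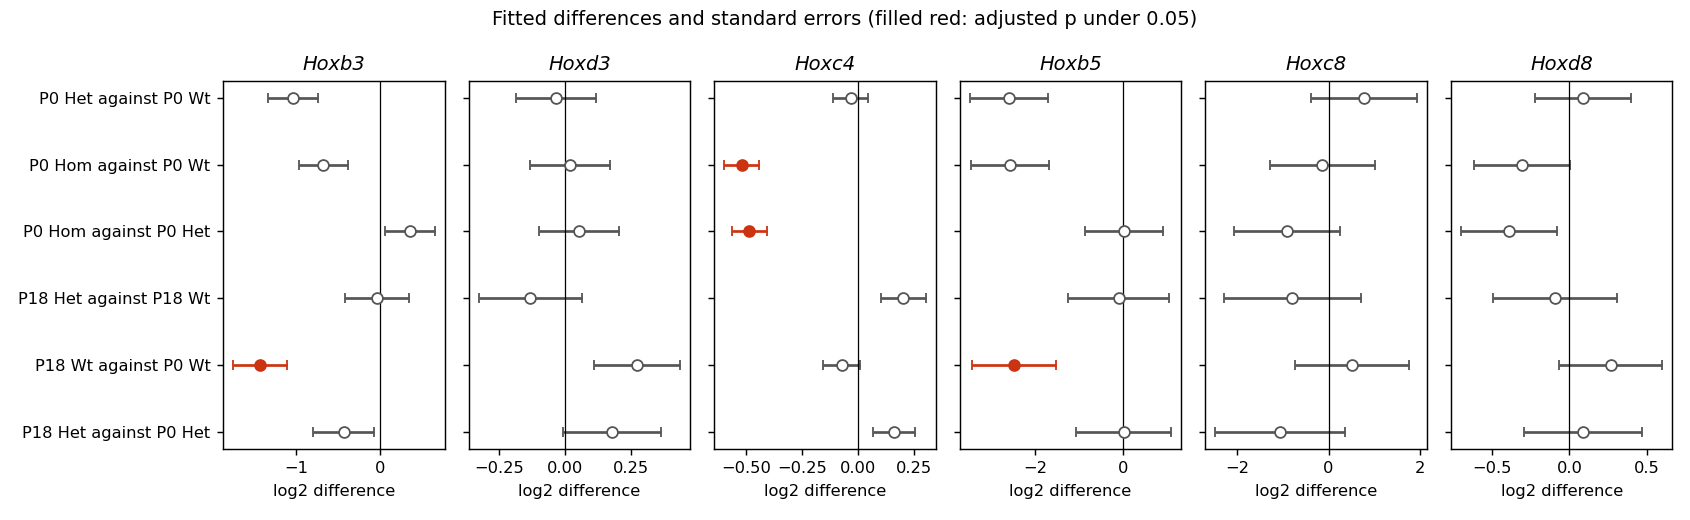
Fitted log2 difference (x axis, own scale for each gene) with its standard error for the 6 kept Hox genes in 6 comparisons (rows). Filled red points passed an adjusted p under 0.05: Hoxc4 in Hom against Wt and against Het, and Hoxb3 and Hoxb5 in P18 Wt against P0 Wt. Hoxb3 and Hoxb5 had passed the filter through P0 arrays alone, so their red points give no independent support.

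Among cofactors of Hox proteins, Meis1 and Pbx3 were higher and Meis2 lower at birth in the mean of both mutant groups than in Wt. Of 11 listed, 5 were kept and these 3 passed, beside 6.76% of all genes called, with a median difference of 0.16 over the list and 0.02 over all genes. The 3 include Meis2, which was kept through the P0 Wt arrays alone, so the count is a description. In Het against Wt, 1 cofactor was called higher and 1 lower, beside 3.11% of all genes. Meis1, which binds DNA with Hox proteins and raises their activity, read 10.04 to 10.59 in P0 Wt, 10.89 to 11.05 in Het and 10.59 to 11.19 in Hom, a rise of 0.58 ± 0.11 (adjusted p = 0.00335, limma). This call was lost by the t-test of the methods (adjusted p = 0.0526), which called 1 of the 3 cofactors, and without Wt replicates 2 and 4 (0.45, adjusted p = 0.0558). Its relative Meis2 moved the other way. It read 5.59, 4.49, 5.16 and 5.22 in P0 Wt, 3.52 to 3.95 in Het and 3.18 to 3.59 in Hom, so that no mutant array exceeded 4. Meis2 passed the filter through the P0 Wt arrays alone, so its call gives no independent support and its values are a description. With the mutants set at the limit, the Wt mean was at least 2.17-fold higher than Het or Hom. Wt arrays did not overlap with Het (as for 14.6% of all genes) or with Hom (9.44%). Pbx3, of the family of Hox DNA-binding partners, read 4.79 to 5.76 in P0 Wt, 5.49 to 6.05 in Het and 5.81 to 6.41 in Hom. Its Het arrays overlapped Wt. It rose by 0.95 ± 0.20 in Hom (adjusted p = 0.00571, limma), and its rise over both mutant groups (0.77 ± 0.17, adjusted p = 0.0125) did not pass without P0 Wt replicate 2 (adjusted p = 0.056). Some markers of other cells were lower in the same mutants, beside 6.76% of all genes called in either direction. Of Schwann and satellite glia genes 4 of 9 fell (list median -0.64), of fibroblast genes 2 of 10 (-0.46) and of macrophage genes 2 of 8 (-0.42), and 0 rose. Endothelial and mural genes had 1 of 10 called lower, sensory neuron genes 1 of 6, and skeletal muscle (11 kept) and fat (4 kept) 0. The glial median relative to the P0 mean was 0.56, -0.13, 1.16 and 0.16 in P0 Wt replicates 1 to 4. It was -0.52 to -0.19 in Het and -0.21 to -0.15 in Hom. The summed levels were 13.68 to 14.61 in Wt, 13.64 to 13.87 in Het and 13.41 to 14.19 in Hom for the glial list. Those of fibroblasts were 14.02 to 14.94, 13.62 to 13.82 and 12.99 to 14.42. Those of macrophages were 9.42 to 10.23, 9.10 to 9.55 and 9.21 to 9.41. Their part in the cofactor differences was not tested.

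From P0 to P18 in Wt, 4 of the 5 cofactors fell and 0 rose, beside 54.9% of all genes called, with a list median of -0.71 against 0.01 over all genes. Meis2, 1 of these 4, read 2.87 to 2.90 in P18 Wt, under the limit and at least 2.17-fold below the P0 Wt mean. It was kept through the P0 Wt arrays alone, so this is a description. The other falls were -0.87 ± 0.22 for Pbx3, -0.71 ± 0.14 for Meis1 and -0.55 ± 0.18 for Pknox1, the last not passing without P18 Wt replicate 3 (-0.37, adjusted p = 0.122, limma). Het against Wt at P18 had 0 calls among cofactors (limma), beside 0.261% of all genes, 0 at an unadjusted p under 0.05 and 0 by t-test.

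Of 26 Polycomb repressors listed, 18 were kept. For mutants against Wt limma called 0, beside 6.76% of all genes, with 1 at an unadjusted p under 0.05 and 0 by t-test. Between Hom and Het 1 was called lower (Bmi1, -0.46 ± 0.13), beside 7.39% of all genes. With 18 members, these counts are too few to set against those shares. Suz12, a core subunit of the complex that methylates histone H3 at lysine 27, lay between 8.57 and 9.04 in all arrays. With age in Wt, 5 rose and 8 fell, beside 54.9% of all genes called. Among them Ezh2, the methyltransferase of dividing cells, fell by 2.34 ± 0.19 and Phc1 by 2.27 ± 0.11. Ezh1, the methyltransferase of resting cells, rose by 1.99 ± 0.19 and Pcgf5 by 1.82 ± 0.32. The P0 Wt arrays of Ezh1 (3.73 to 4.34) and Pcgf5 (3.35 to 4.87) lay partly under the limit, so the sizes of these 2 rises are uncertain.

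Of 10 kept Trithorax genes and H3K27 demethylases, limma called 0 for mutants against Wt, beside 6.76% of all genes. At an unadjusted p under 0.05 there were 0, and 0 by t-test. With 10 members, 0 calls are too few to set against that share. With age 3 rose and 4 fell, beside 54.9% of all genes called, led by the demethylase Kdm6b (-1.23 ± 0.20) and the methyltransferase Kmt2b (-1.09 ± 0.18). Kmt2a, the founding Hox activator of the group, read 7.73 to 8.46 at P0 and 7.27 to 8.07 at P18.

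Genes of retinoic acid and other inducers of Hox expression were mostly under the limit: 10 of 27 listed were kept, and the Cdx genes, Cyp26a1 and Aldh1a2 were not. In mutants, beside 6.76% of all genes called, 1 rose, Gmnn, a replication inhibitor that also acts on Hox promoters (0.51 ± 0.12, not passing without P0 Wt replicate 2, adjusted p = 0.0716), and 1 fell, the trunk zinc finger factor Tshz2 (-0.86 ± 0.17). Crabp1, which binds retinoic acid in the cytoplasm, was lower in Het than in Wt (-0.91 ± 0.20, adjusted p = 0.0188, limma), which did not pass without Het replicate 6 (0.0595) or 8 (0.0645). Of the 10 kept members, 2 were called in this comparison, beside 3.11% of all genes. In P0 Hom arrays Crabp1 read 5.46 to 6.01, overlapping Wt. With age in Wt 4 were called higher and 3 lower, beside 54.9% of all genes called. Aldh1a1, which makes retinoic acid, read 2.39 to 2.58 in P0 Wt and 5.68 to 7.19 in P18 Wt. With P0 set at the limit, its P18 Wt mean was at least 4.94-fold higher. Aldh1a1 passed the filter through its P18 arrays alone, so its call gives no independent support and its values are a description. Crabp1 read 5.62 to 6.31 in P0 Wt and 9.13 to 9.76 in P18 Wt. The receptors Rxrg and Rarb rose by 1.65 ± 0.25 and 1.10 ± 0.30, while Tshz2 (-0.66 ± 0.21) and Tshz3 (-0.54 ± 0.18) fell. Egr2, a factor of hindbrain and myelinating Schwann cells, was the third gene called lower, but read 6.33, 2.90, 7.43 and 3.10 in P0 Wt and 2.84 to 2.92 in P18 Wt, so it was kept through replicates 1 and 3 and was not read as a fall. The myelin gene Mbp was also highest among P0 Wt arrays in these replicates (10.43 and 11.60, against 7.64 and 9.22).

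**Figure D5:**
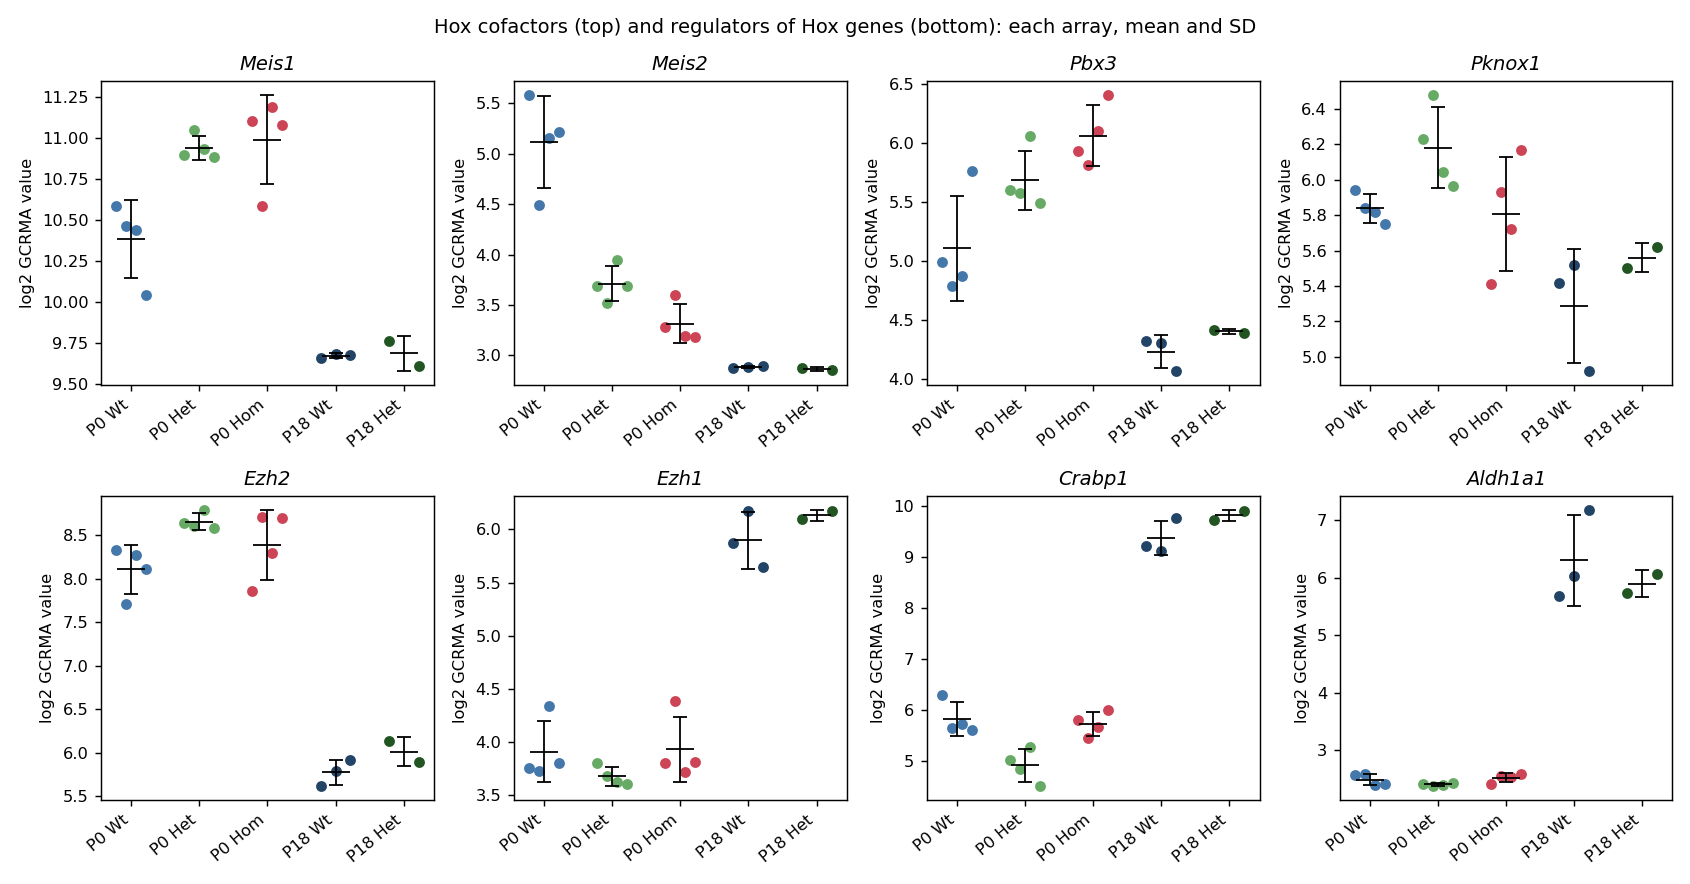
Log2 GCRMA value (y axis, own scale for each gene) of 4 Hox cofactors (top) and 4 regulators of Hox genes (bottom) by group, with arrays as points and the mean and SD as bars. Meis2 lies under 4 in all mutant and P18 arrays, and Ezh2 falls while Ezh1 and Crabp1 rise from P0 to P18. Aldh1a1 lies under 4 in all P0 arrays and passed the filter through its P18 arrays alone.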

How the data were processed

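RNA of 17 sympathetic ganglion samples was hybridised to Affymetrix Mouse Genome arrays. By their methods and labels, the authors ran GCRMA (no version given) with a gene-level annotation and deposited 1 log2 value per probe set and array. Joint normalization of all arrays is not given in the sources used here. GCRMA shrinks values near background to a narrow floor, so small differences there were not read. Groups came from the stage and genotype labels. Symbols came from the platform annotation. Some Hox genes without a named row were not analysed here. The members and gene lists were chosen with earlier results of these data known.

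Group means over the 17 arrays were fitted in limma 3.58.1 (R 4.3.3) with eBayes (trend, robust) and two-sided tests. Benjamini-Hochberg adjustment ran over 9973 probe sets, and called means an adjusted p under 0.05. The fit was tested on simulated data. Named were all Hox genes, up to 4 rising and 4 falling called members of each other list per comparison, and a set (Meis1, Meis2, Pbx3, Ezh2, Suz12, Kmt2a, Th, Dbh, Hand2, Pou4f1 and Sox10). Where all arrays of a group lay under the limit, it was set at the limit to give a lower bound of a fold. Ucp1, Phox2a, Ddc, Mbp and the single arrays were picked after their values were seen. Alternatives covered filters, normalization, spread models, array weights, the t-test of the methods and arrays left out.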

Additional observations from a re-analysis of the deposited data

Results flagged for a closer look

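In 5 of 27 groups of 4 arrays tested, 1 array stood far from the other 3, by Dixon's criterion for 4 values. Chance alone marks about 5% of such groups. Hoxc8 read 2.47 in P0 Hom replicate 10 against 8.70 to 9.50 in the other Hom arrays. Hoxc4 in the same array read 9.89 against 10.11 to 10.14. Hoxd3 was low in 1 array of each P0 genotype: 4.36 in Wt replicate 1 (others 4.83 to 4.84), 4.35 in Het replicate 5 (4.77 to 4.82) and 4.44 in Hom replicate 11 (4.82 to 4.84).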

How the results depend on the processing

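The number of Hox genes over the limit stayed at 6 with a limit of 5 or quantile normalization and was 7 with a limit of 3.5, which added Hoxa5. The fall of Hoxc4 in Hom against Wt passed in limma under every alternative run and lost its call only by the t-test of the methods (adjusted p = 0.064). Of Hox genes called in mutants against Wt (1), array weights gave 3, a fit of the compared arrays alone 0, the t-test 0, leaving out P0 Wt replicate 3 with Hom replicate 12 gave 3, and single arrays left out 0 to 3. For Het against Wt (0), array weights gave 1, the same 2 arrays left out 1, and single arrays 0 to 2. For Hom against Wt (1), the t-test gave 0, both pairs of arrays left out (Wt 3 with Hom 12, Wt 4 with Hom 10) 2, and single arrays 1 to 2. For P18 Wt against P0 Wt (2), no filter gave 9 and 1 was left with a stricter filter, the compared arrays alone, the t-test, the replicate block, or Wt replicates 1 and 4, 2 and 4, or Wt 4 with Hom 10 left out, and single arrays gave 1 to 2. For P18 Het against P0 Het (0), array weights gave 1, the compared arrays alone 2 and the t-test 1. Of 5 cofactors and regulators called in mutants, the t-test left 1 and omitting Wt replicates 1 and 4 left 3. Why these counts moved was not tested.

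Hoxc8 in Hom against Wt turned from -0.13 to 1.35 with array weights, 0.09 without Wt replicate 2, 0.17 without Wt replicate 3 and 1.04 without Wt 4 and Hom 10, and single arrays left out gave -0.79 to 1.55. Against Het it turned to 0.54 with array weights and 0.77 without Wt 4 and Hom 10, with single arrays giving -1.57 to 0.77. Hoxd8 in Hom against Wt ranged from -0.58 to 0.0301 with single arrays left out, the highest without Hom replicate 10. No label states that replicate numbers pair samples, and by the study's methods animals were killed for dissection, so both ages cannot share an animal. Residuals of P0 and P18 Wt samples of the same number had correlations of 0.07, 0.09 and -0.18, too few to settle pairing. With the numbers as a block, which assumes pairing, Hoxb5 lost its call between P0 and P18 Wt (-1.29, adjusted p = 0.239, limma). Median centring moved the median of all genes to 0.10 in P18 Wt against P0 Wt, -0.10 in Hom against Het and -0.13 in the comparison of Het effects. The number of arrays and the background floor limit what could be detected.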
